A study of Dipsacus asperoides with 9 samples.

Results

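The comparison described here sets roots of Dipsacus asperoides plants that had grown for 7 months (M7) against roots of seedlings at the two-leaf stage (L2). Dipsacus asperoides is a perennial herb of the teasel group whose dried root is a Chinese medicine, and asperosaponin VI, an oleanane triterpenoid saponin, is its marker compound. The M7 stage and the L2 stage had 3 libraries each, of the 9 root libraries in the series, and every plant carried the label WT for genotype, with no treatment named. Each library was described as a biological replicate, but how many plants a library pooled, the age of the seedlings in days and the part of the root taken are not given in the sources used here. The age of the plant and the size, anatomy and surroundings that go with it cannot be told apart in this design, and p values measure only the spread between these libraries. The study sequenced these stages to follow root development along with the build-up of this saponin.

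Members were the unigenes, which are assembled transcript groups, that reached at least 1 FPKM in at least 3 of these 6 libraries. FPKM is a fragment count corrected for transcript length and for the mapped fragments of the library. The table analysed here lists 65535 unigenes, which fills the row capacity of an older spreadsheet format, so it may hold only part of the assembly. Of these, 27890 met this rule and were tested. From these, 2480 whose best protein match came from Beta, Chenopodium, Spinacia, Quercus suber or Hordeum were dropped, which left 25410 kept unigenes. Among the kept unigenes, 16149 carried a protein description, 11900 of these descriptions named a function, and 9261 had no description. Gene groups below are lists of words in these descriptions, so a member is a unigene whose best match has that name, and closely related unigenes can share reads. Sequences of the unigenes were not used here, so functions rest on the descriptions alone.

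A seedling root at the two-leaf stage is a young absorbing organ, with a dividing tip, root hairs and an endodermis whose Casparian strip seals the space between cells. A root of many months has thickened through its cambium, has shed or covered its outer tissues and serves to store and transport. Growth by division, mineral uptake, lignin deposition, the gaseous hormone ethylene and the wound hormone jasmonate are all known to have programs of their own in roots, and the lists below follow these functions.

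Libraries of M7 differed from those of L2 in more than single genes. Of the kept unigenes, 11353, 15505 and 14412 reached 1 FPKM in the M7 replicates 1, 2 and 3, against 23935, 23969 and 23917 in the L2 replicates. The 100 most expressed unigenes took 48.1, 35.4 and 34.9% of the summed FPKM in M7 and 20.8, 20.6 and 21.6% in L2, so replicate 1 of M7 stood apart from the other libraries. Replicates also scattered more in M7, where the median coefficient of variation of unigenes averaging over 30 FPKM was 30.4%, against 4.63% in L2. The median log2 fold change of all kept unigenes, M7 over L2, was -1.25 on the values as deposited, -0.82 after rescaling each library by its median ratio and 0.04 after quantile normalization. All fold changes are on the log2(FPKM + 1) scale, which understates the change of unigenes with low values. Because the median shifts so much with the scaling, gene lists are described relative to it, and each list's direction was checked under both other scalings. In bulk roots, fewer cells of a type and less RNA per cell cannot be told apart.

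The differences between the stages were broad, with many more unigenes low in M7 than high. A unigene was called a differentially expressed gene (DEG) where limma gave an adjusted p under 0.05 (Benjamini-Hochberg), the log2 fold change passed 2 in either direction and the higher of the stage means passed 30 FPKM. Errors of fold changes are standard errors from the fit, with n = 3 per stage. By this rule 325 unigenes rose in M7 (1.28% of the kept unigenes) and 1120 fell (4.41%). Without the threshold on the level, 677 rose (2.66%) and 6314 fell (24.8%), and these are called large rises and large falls below. These shares are the background for the counts of the lists below. A count near them is no result about its list. Rises made up 22.5% of the DEGs as deposited, 60.5% after median ratio rescaling and 43.3% after quantile normalization, so the balance between rises and falls depended on the scaling. Of the 325 rises, all 325 were called after median ratio rescaling and 301 after quantile normalization, while of the 1120 falls 548 and 687 were. Without replicate 1 of M7, 371 unigenes rose and 868 fell.

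Many of the falls were unigenes that were hardly seen in M7. In all, 8588 kept unigenes had at least 1 FPKM in every L2 library and in no M7 library, against 451 with the reverse pattern and 9212 with at least 1 FPKM in all 6 libraries. Of the DEGs that fell, 195 lay under 0.1 FPKM in all 3 M7 libraries, and 181 of these were listed at 0 there. Values near 0 in M7 went with the species of the match. Under 0.1 FPKM in all M7 libraries were 8.38% of the 9967 kept unigenes matched to asterids, the plant group of Dipsacus, 24.3% of those matched to other plants, 33.5% of those with no description and 82.8% of the dropped matches. All 210 genera of best matches were plants. The part that RNA of other plants could have in the L2 values was not tested, and counts limited to asterid matches, an alternative chosen after the data were seen, gave 186 rises (1.87%) and 592 falls (5.94%).

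**Figure D1:**
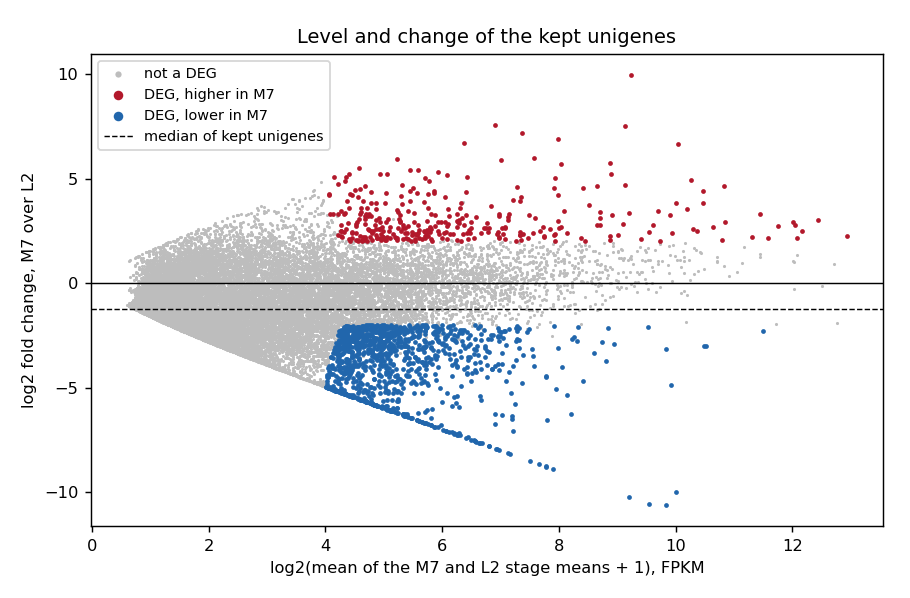
Each point is a kept unigene, placed by the log2 of its mean level plus 1 (horizontal axis, FPKM) and its log2 fold change, M7 over L2 (vertical axis). Red points are the 325 DEGs higher in M7, blue points the 1120 DEGs lower in M7, grey points the rest, and the dashed line is the median of -1.25. Points along the lower edge are unigenes at or near 0 in M7.

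The strongest single changes named a short set of functions. Cytosolic sulfotransferase 15-like (TRINITY_DN1032_c0_g1), of the enzymes that transfer sulfate to small molecules, had 1192, 1456 and 979 FPKM in M7 and 0.24, 0.18 and 0.22 FPKM in L2 (log2 fold change 9.94 ± 0.21, adjusted p = 1.5e-05, limma). Dymeclin-like (TRINITY_DN15361_c0_g1), related to a Golgi protein of animals, had 1346, 794 and 1224 FPKM in M7 and 5.3, 5.24 and 4.44 FPKM in L2 (log2 fold change 7.52 ± 0.24, adjusted p = 1.87e-05, limma). All M7 libraries lay far above all L2 libraries for both. A rhodanese-like protein (TRINITY_DN16983_c0_g1), by its family a sulfur-transferring enzyme, had 184, 897 and 429 FPKM in M7, with replicate 1 the lowest, against 3.66, 1.33 and 2.87 FPKM in L2 (log2 fold change 6.90 ± 0.62, adjusted p = 0.000165, limma).

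At the other end stood unigenes that were abundant in L2 and almost absent in M7. ERF109 (TRINITY_DN1369_c0_g1), a transcription factor known in Arabidopsis for its response to wounding and oxidative stress, had 0, 2.66 and 1.33 FPKM in M7 and 2115, 1976 and 2036 FPKM in L2 (log2 fold change -9.97 ± 0.48, adjusted p = 2.68e-05, limma). A general substrate transporter (TRINITY_DN21780_c0_g2) had 0, 0.02 and 0.06 FPKM in M7 and 187, 179 and 185 FPKM in L2 (adjusted p = 1.5e-05, limma). WAT1-related protein (TRINITY_DN15784_c0_g2), of a family that includes a vacuolar auxin carrier, had 0.07, 0.23 and 0.12 FPKM in M7 and 122, 126 and 123 FPKM in L2 (log2 fold change -6.78 ± 0.17, adjusted p = 1.6e-05, limma). In each of these 3 the stages lay far apart and the L2 libraries lay close together. Clavaminate synthase-like protein (TRINITY_DN20900_c0_g1), an oxygenase, was listed at 0 in every M7 library and had 180.4, 184 and 198 FPKM in L2 (adjusted p = 1.5e-05, limma). Its match is to tomato, an asterid.

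Genes of dividing cells were low in M7, more so than the average unigene. Of 106 cell cycle and DNA replication unigenes, 8 fell as DEGs and 0 rose, and 54 were large falls (50.9%, against 24.8% of all kept unigenes). Their summed level was 462, 660.00 and 688 FPKM in M7 and 1759, 1804 and 1788 FPKM in L2, lower in every M7 library under all 3 scalings. The median log2 fold change of the list was -0.77 relative to that of all kept unigenes. MCM5 (TRINITY_DN1352_c0_g1), a subunit of the helicase that opens DNA for replication, had 0.43, 2.51 and 0.80 FPKM in M7 and 70.8, 74.7 and 71.7 FPKM in L2 (log2 fold change -5.14 ± 0.36, adjusted p = 6.38e-05, limma). MCM2 (TRINITY_DN3539_c0_g1), of the same helicase, had 0.48, 1.82 and 0.59 FPKM in M7 and 56.3, 59.6 and 58.3 FPKM in L2 (log2 fold change -4.97 ± 0.29, adjusted p = 3.67e-05, limma). CDC20.2 (TRINITY_DN10028_c0_g1), which activates the complex that ends mitosis, fell in the same way, to 0.89, 0.98 and 0.72 FPKM in M7 against 30.7, 29.8 and 29.7 FPKM in L2 (log2 fold change -4.06 ± 0.17, adjusted p = 2.52e-05, limma). The MCM proteins act in replication and CDC20.2 in mitosis.

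Other genes of dividing cells fell less or did not fall. The clamp of the replication fork, PCNA (TRINITY_DN2362_c0_g1), was lower too, with 41.3, 31.8 and 36 FPKM in M7 and 134, 131 and 149 FPKM in L2 (log2 fold change -1.90, under the fold threshold). Its adjusted p from limma was 0.000174 as deposited and 0.0593 after median ratio rescaling. Cyclin-B1-2-like (TRINITY_DN3279_c0_g5), a mitotic cyclin by name, had 109.5, 109 and 117 FPKM in M7 and 86.3, 98.4 and 109 FPKM in L2, a difference that did not pass the test as deposited (log2 fold change 0.20, adjusted p = 0.306, limma) and did after median ratio rescaling (1.02, adjusted p = 0.0391). PCNA was thus low in M7 without reaching the DEG rule, and this cyclin was not low. KNOLLE-like syntaxin (TRINITY_DN2009_c0_g1), which fuses vesicles at the forming cell plate and was chosen after its values were seen, had 107, 154 and 103 FPKM in M7 and 30.5, 29 and 34.3 FPKM in L2 (log2 fold change 1.90, adjusted p = 0.000469, limma). Among 29 histones 2 fell as DEGs and 0 rose, against 4.41% and 1.28% of all kept unigenes. Histone H2B (TRINITY_DN3088_c0_g3), a core histone of nucleosomes, had 18.4, 17.5 and 23.6 FPKM in M7 and 186, 199.6 and 217 FPKM in L2 (log2 fold change -3.28 ± 0.18, adjusted p = 3.24e-05, limma). Histone H3.3 (TRINITY_DN11031_c0_g1), the variant placed independently of replication, had 1553, 1142 and 1236 FPKM in M7 and 901, 889 and 1030.1 FPKM in L2, and its direction turned with the scaling (log2 fold change 0.47 as deposited and -0.51 after quantile normalization). Its adjusted p of 0.0296 (limma) became 0.0918 without L2 replicate 1 and 0.0953 without L2 replicate 2. The alpha tubulin unigene TRINITY_DN1295_c1_g1, a building block of microtubules, was a DEG that rose, with 1184, 1847 and 3514 FPKM in M7 and 326, 319 and 330.4 FPKM in L2 (log2 fold change 2.60 ± 0.39, adjusted p = 0.00146, limma).

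The protein synthesis machinery split between a few abundant unigenes and many near 0. Cytosolic ribosomal proteins summed to 41009, 33254 and 38695 FPKM in M7 and 24342, 24406 and 26625 FPKM in L2, a direction that did not hold after quantile normalization, where the libraries overlapped. With that normalization and without the most abundant unigene, the sum was lower in every M7 library. Of the 174 unigenes, 1 rose as a DEG, 19 fell, and 82 lay under 0.1 FPKM in all M7 libraries, among them 22 of 74 matched to asterids and 60 of 100 matched to other plants. Acidic ribosomal protein P1-like (TRINITY_DN34646_c0_g2), of the stalk that recruits translation factors, had 3481, 2354 and 2747 FPKM in M7 and 698, 672 and 657 FPKM in L2 (log2 fold change 2.06 ± 0.16, adjusted p = 8.36e-05, limma). A 40S ribosomal protein S25 unigene (TRINITY_DN32274_c0_g1) matched to Capsicum was listed at 0 in M7 and had 77.6, 76.8 and 95.1 FPKM in L2 (adjusted p = 1.67e-05, limma). Initiation factor 5A (TRINITY_DN33213_c0_g1), which helps ribosomes through stalls, had 2873, 1715 and 2196 FPKM in M7 and 371, 381 and 409 FPKM in L2 (log2 fold change 2.51 ± 0.20, adjusted p = 9.96e-05, limma). Subunit A of initiation factor 3 (TRINITY_DN1825_c0_g1), a scaffold of the large initiation complex, moved the other way, with 5.49, 12.9 and 14.1 FPKM in M7 and 138, 144 and 134 FPKM in L2 (log2 fold change -3.65 ± 0.35, adjusted p = 0.000233, limma).

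**Figure D2:**
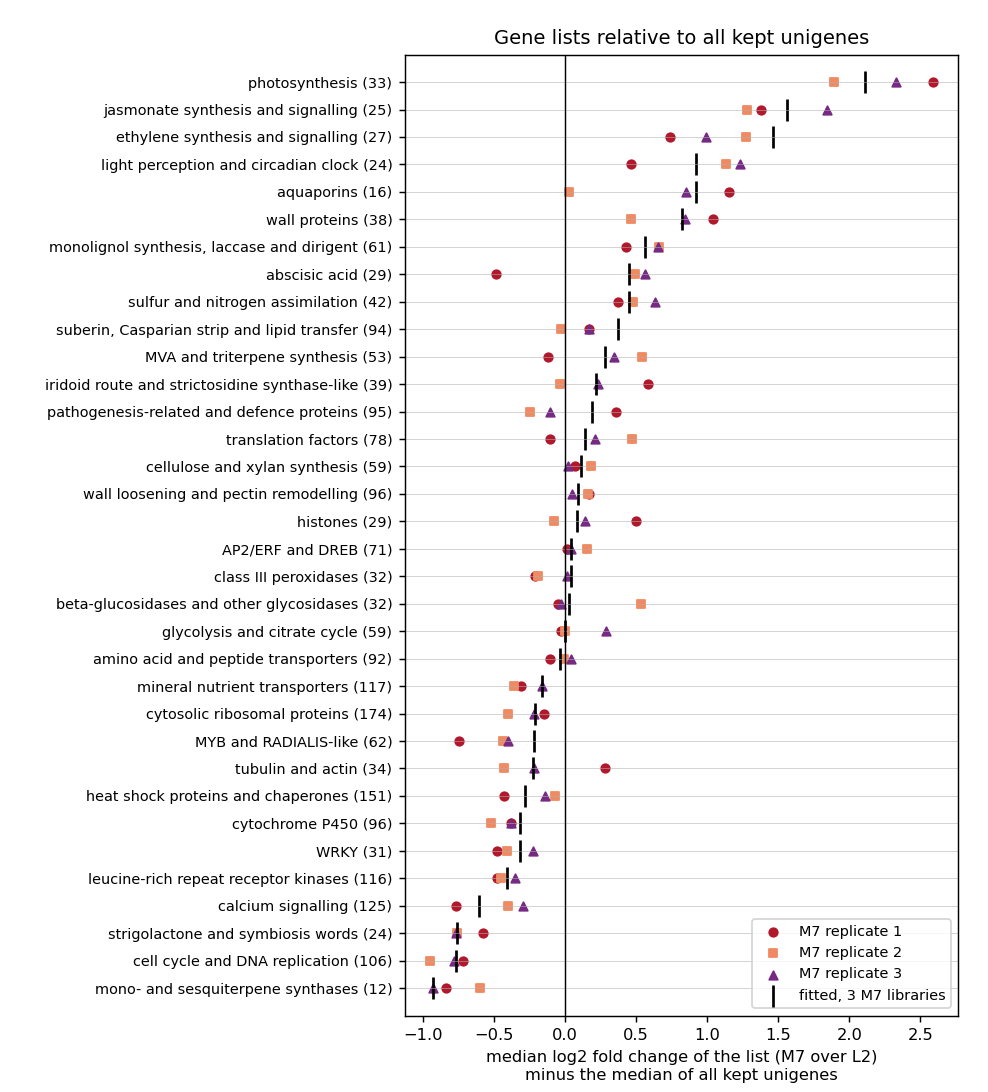
Each row is a gene list, with its number of kept unigenes in parentheses. The horizontal axis gives the median log2 fold change of the list, M7 over L2, minus the median of all kept unigenes; symbols are single M7 libraries against the mean of L2 and black bars the fit of 3 libraries. Photosynthesis lay highest (2.11) and mono- and sesquiterpene synthases lowest (-0.93). After quantile normalization the medians of translation factors, histones, class III peroxidases, MVA and triterpene synthesis, the iridoid route and beta-glucosidases lay below 0.

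Among wall-building lists, the sum of monolignol unigenes was higher in M7. That of class III peroxidases, most of it from a pair of unigenes, was lower. The sums of wall-loosening and wall protein unigenes each turned on 1 abundant unigene. Cellulose and xylan unigenes included 0 DEGs that rose and 3 that fell among 59, near the shares of all kept unigenes (1.28% and 4.41%). Their summed level of 1125, 1547 and 1761 FPKM in M7, against 2130.00, 2103 and 1979 FPKM in L2, overlapped between the stages after median ratio rescaling. CELLULOSE SYNTHASE INTERACTIVE 3 (TRINITY_DN3484_c0_g1), which ties cellulose synthase to microtubules, had 0.23, 3.88 and 1.83 FPKM in M7 and 96, 111 and 83.5 FPKM in L2 (log2 fold change -5.24 ± 0.51, adjusted p = 0.000243, limma). Wall loosening and pectin unigenes held 3 DEGs that rose and 10 that fell among 96, yet their sum was higher in every M7 library under all 3 scalings, at 9330.00, 6887 and 7506 FPKM in M7 and 4878, 4739 and 4687 FPKM in L2. Most of that sum came from a pectinesterase inhibitor domain protein (TRINITY_DN37510_c0_g2), of a family that restrains pectin demethylation, with 6669.9, 3890.5 and 4661 FPKM in M7 and 497, 484 and 509 FPKM in L2 (log2 fold change 3.31 ± 0.20, adjusted p = 4.03e-05, limma). The rest of the list went the other way as deposited, with 2660.00, 2997 and 2845 FPKM in M7 and 4381, 4255 and 4178 FPKM in L2 without that unigene, and overlapped after median ratio rescaling. Expansin-like B1 (TRINITY_DN12908_c0_g1), related to proteins that loosen walls, had 43.6, 35 and 40.8 FPKM in M7 and 0.87, 1.12 and 1.33 FPKM in L2 (log2 fold change 4.28 ± 0.20, adjusted p = 2.65e-05, limma). Expansin-A1 (TRINITY_DN2424_c0_g1) had 683, 635 and 633 FPKM in M7 and 693, 607 and 551 FPKM in L2, which overlapped, with a log2 fold change of 0.08 as deposited and -0.73 after quantile normalization (adjusted p = 0.585, limma).

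An endoglucanase (TRINITY_DN1743_c1_g1), which cuts glucan chains, fell to 33.3, 2.76 and 2.17 FPKM in M7, with replicate 1 the highest, against 562, 565 and 590.5 FPKM in L2 (log2 fold change -6.27 ± 0.92, adjusted p = 0.00142, limma). A xyloglucan endotransglucosylase/hydrolase (TRINITY_DN3293_c1_g1), which cuts and rejoins xyloglucan, had 6.41, 17.2 and 17.8 FPKM in M7 and 201, 211 and 193 FPKM in L2 (log2 fold change -3.89 ± 0.39, adjusted p = 0.000276, limma). Structural wall proteins (extensins, proline-rich and arabinogalactan proteins) summed to 10620.00, 6519 and 6508 FPKM in M7 and 2685, 2709 and 2763 FPKM in L2, higher in M7 under all 3 scalings. The difference came from 14 kDa proline-rich protein DC2.15-like (TRINITY_DN1774_c0_g3), with 7927, 5016 and 5024 FPKM in M7 and 872, 867 and 887 FPKM in L2 (log2 fold change 2.74 ± 0.19, adjusted p = 6.43e-05, limma). Without it the sums were 2694, 1503 and 1484 FPKM in M7 and 1814, 1842 and 1875 FPKM in L2, which overlapped. Among their 38 unigenes, 2 rose as DEGs and 3 fell. BURP domain protein BNM2A-like (TRINITY_DN25695_c0_g1) had 88.5, 75.8 and 56 FPKM in M7 and 8.87, 11.1 and 10.2 FPKM in L2 (log2 fold change 2.73 ± 0.23, adjusted p = 0.000136, limma). Leucine-rich repeat extensin-like protein 2 (TRINITY_DN16800_c0_g1), which links wall and membrane, had 13.5, 7.99 and 3.48 FPKM in M7 and 45.5, 47.5 and 37.8 FPKM in L2 (log2 fold change -2.41 ± 0.44, adjusted p = 0.00371, limma), a call lost after median ratio rescaling (adjusted p = 0.0773).

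Lignin precursors are made from phenylalanine by the monolignol route and are then oxidized in the wall by laccases and class III peroxidases. Monolignol, laccase and dirigent unigenes summed to 4827, 4067 and 3967 FPKM in M7 and 2306, 2317 and 2360.00 FPKM in L2, with 5 DEGs that rose and 2 that fell among 61. The sum was higher in M7 under all 3 scalings. Cinnamate 4-hydroxylase 3 (TRINITY_DN23067_c0_g1), of the entry to the route, had 953, 723 and 896 FPKM in M7 and 168, 169 and 176 FPKM in L2 (log2 fold change 2.31 ± 0.14, adjusted p = 4.21e-05, limma). Cinnamyl alcohol dehydrogenase 3 (TRINITY_DN16_c0_g2), of its last step, had 312, 189.9 and 194 FPKM in M7 and 35.9, 37.2 and 32 FPKM in L2 (log2 fold change 2.66 ± 0.24, adjusted p = 0.000178, limma). Caffeoyl-CoA O-methyltransferase (TRINITY_DN10998_c0_g1), of a middle step, had 789.6, 970.02 and 809 FPKM in M7 and 329.99, 354 and 369.8 FPKM in L2 and stayed under the fold threshold (log2 fold change 1.28). Laccase-3 (TRINITY_DN2803_c0_g1), an oxidase of the wall, went the other way, with 1.11, 1.26 and 0.33 FPKM in M7 and 38.4, 41.1 and 38.2 FPKM in L2 (log2 fold change -4.44 ± 0.26, adjusted p = 3.55e-05, limma).

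Class III peroxidases had 1 DEG that rose and 6 that fell among 32, and their sum of 1732, 4386 and 4449 FPKM in M7, against 10871, 10529 and 11401 FPKM in L2, was lower in every M7 library under all 3 scalings. A pair of unigenes named after peroxidase 42 held most of the sum, so its fall is mainly theirs. The median of the list lay only 0.04 above that of all kept unigenes, and no fall of the whole class is read from the sum. Peroxidase POD42 (TRINITY_DN23691_c0_g3) had 495, 1260.1 and 1461 FPKM in M7 and 4719, 4640.4 and 4773 FPKM in L2 (log2 fold change -2.28 ± 0.41, adjusted p = 0.00331, limma), and peroxidase 42 (TRINITY_DN18096_c1_g1) had 659, 1712 and 2158 FPKM in M7 and 5183, 4940.2 and 5621 FPKM in L2 (log2 fold change -1.96, just under the fold threshold). Replicate 1 of M7 was the lowest library in both. The peroxidase that rose (TRINITY_DN23125_c0_g2) had 235, 571 and 234 FPKM in M7 and 36.5, 35.1 and 34.7 FPKM in L2 (log2 fold change 3.12 ± 0.38, adjusted p = 0.000589, limma).

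**Figure D3:**
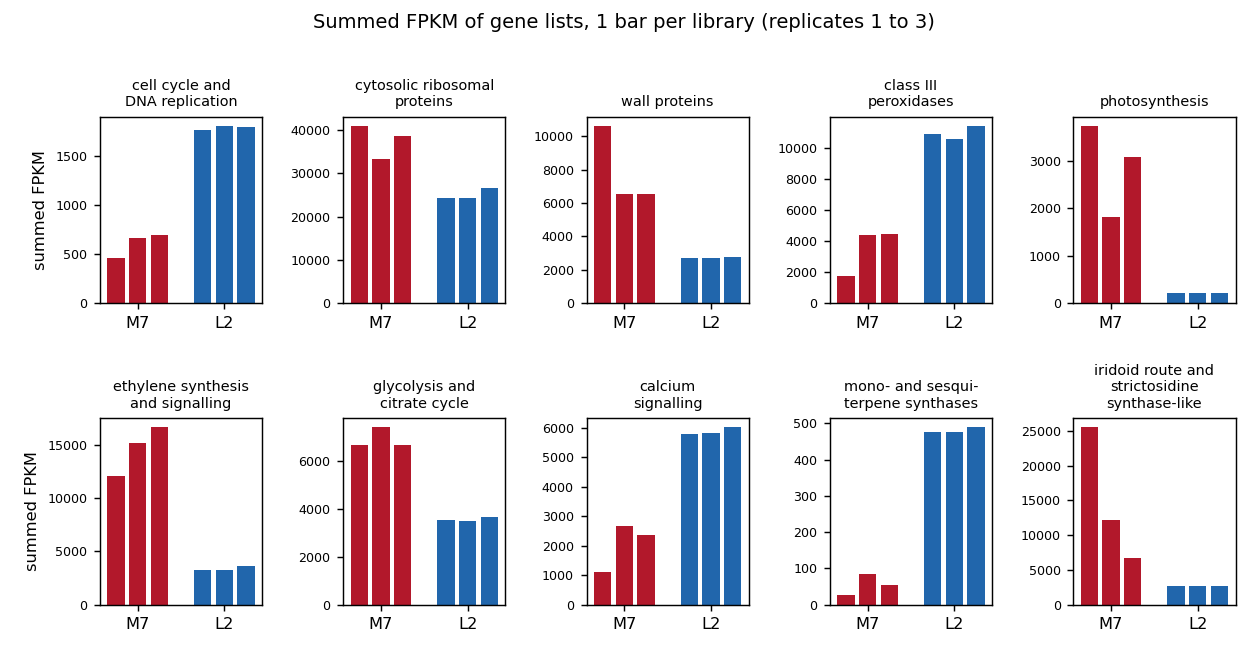
Bars give the summed FPKM of 10 gene lists in each library, M7 in red and L2 in blue, replicates 1 to 3 from left to right, with a vertical axis of its own from 0 in each panel. The sums of 9 lists kept their side in every library under all 3 scalings, and that of the ribosomal proteins did not, since its libraries overlapped after quantile normalization. Without the most abundant unigene of each list, those of wall proteins, glycolysis and the iridoid route no longer kept their side either.

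The unigenes named here for the endodermis, a tissue that defines the root, were near 0 in M7 and low in L2 as deposited. Casparian strip membrane proteins build the scaffold on which the strip forms, and SHORT-ROOT and SCARECROW are the factors that specify the endodermis in Arabidopsis. These unigenes were chosen after their values were seen. The highest, Casparian strip membrane protein 3 (TRINITY_DN13496_c0_g1), had 0.09, 0.26 and 0 FPKM in M7 and 10.6, 7.46 and 9.35 FPKM in L2 (log2 fold change -3.17 ± 0.20, adjusted p = 4.39e-05, limma). A neighbour of the same name (TRINITY_DN13496_c0_g2) had 0, 0.14 and 0 FPKM in M7 and 1.84, 1.86 and 3.15 FPKM in L2, and one more (TRINITY_DN12279_c0_g1) had 0.61, 0.79 and 0.68 FPKM in M7 and 3.48, 4.04 and 3.49 FPKM in L2. Casparian strip membrane protein 1 (TRINITY_DN13496_c0_g3) was listed at 0 in M7 and had 3.06, 2.94 and 3.93 FPKM in L2. SHORT-ROOT-like (TRINITY_DN21155_c0_g1) had 0, 0.72 and 0.04 FPKM in M7 and 7.49, 6.2 and 6.59 FPKM in L2 (log2 fold change -2.67 ± 0.26, adjusted p = 0.000229, limma). SCARECROW (TRINITY_DN35636_c0_g2) had 0.04, 0.37 and 0.67 FPKM in M7 and 1.48, 1.64 and 1.52 FPKM in L2. After quantile normalization the log2 fold change of TRINITY_DN12279_c0_g1 was 0.20, against -1.46 as deposited, and that of SCARECROW was 0.72, against -0.93 as deposited. There TRINITY_DN13496_c0_g2 also lost its call (adjusted p = 0.63, limma).

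Suberin, Casparian strip and lipid transfer words together named 94 unigenes, of which 1 rose and 6 fell as DEGs, against 1.28% and 4.41% of all kept unigenes. Their sums were 1796, 1671 and 1589 FPKM in M7 and 1894, 1871 and 1949 FPKM in L2, and the order turned after median ratio rescaling. CASP-like protein 4D1 (TRINITY_DN12070_c0_g2), of the wider family, had 2.86, 0.81 and 2.15 FPKM in M7 and 145, 143 and 153 FPKM in L2 (log2 fold change -5.72 ± 0.32, adjusted p = 3.11e-05, limma). Alcohol-forming fatty acyl-CoA reductase (TRINITY_DN113681_c0_g1), which makes the fatty alcohols of suberin and waxes, had 0.06, 0.29 and 0.51 FPKM in M7 and 93.7, 93.8 and 92.9 FPKM in L2 (log2 fold change -6.21 ± 0.21, adjusted p = 1.87e-05, limma). Omega-hydroxypalmitate O-feruloyl transferase (TRINITY_DN2288_c0_g1), which joins ferulate to suberin monomers, had 1.84, 1.09 and 3.64 FPKM in M7 and 40.4, 39.4 and 43.9 FPKM in L2 (log2 fold change -3.80 ± 0.32, adjusted p = 0.000135, limma). These falls were picked by the rule for named unigenes, and the median of the whole list lay 0.37 above that of all kept unigenes. A 3-ketoacyl-CoA synthase 4 (TRINITY_DN3739_c0_g2), which lengthens fatty acids, rose, with 128, 94.7 and 131 FPKM in M7 and 17.1, 16.2 and 17.2 FPKM in L2 (log2 fold change 2.72 ± 0.20, adjusted p = 6.84e-05, limma).

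A phosphate importer and PHO1 fell, while a nitrate and an ammonium transporter rose. Among 117 mineral nutrient transporters, 2 rose as DEGs and 16 fell, against 1.28% and 4.41% of all kept unigenes. The median of the list was -0.16 relative to that of all kept unigenes. Its summed level was lower in every M7 library as deposited and overlapped between the stages after median ratio rescaling. Phosphate transporter 1-4-like (TRINITY_DN319_c0_g1), of the carriers that take phosphate from soil, had 1.34, 0.40 and 0.57 FPKM in M7 and 113, 109.7 and 112 FPKM in L2 (log2 fold change -6.02 ± 0.25, adjusted p = 2.45e-05, limma). PHO1 (TRINITY_DN12968_c0_g1), which loads phosphate into the xylem, had 0.05, 0.26 and 0.11 FPKM in M7 and 72, 71 and 65 FPKM in L2 (log2 fold change -5.95 ± 0.18, adjusted p = 1.87e-05, limma). The next 3 unigenes, with names known from the response to phosphate shortage, were picked after their values were seen and are no count of such genes. SPX domain protein 2 (TRINITY_DN16934_c0_g3), an intracellular phosphate sensor, had 5.4, 20.8 and 30.3 FPKM in M7 and 229.8, 249.6 and 238 FPKM in L2 (log2 fold change -3.88 ± 0.59, adjusted p = 0.00164, limma), and its neighbour SPX1-like (TRINITY_DN16934_c0_g1) had 1.68, 8.91 and 10.03 FPKM in M7 and 98.6, 96.3 and 96.6 FPKM in L2. Purple acid phosphatase 17 (TRINITY_DN12936_c0_g1), which frees phosphate from organic matter, had 0.12, 0.50 and 0.35 FPKM in M7 and 46.6, 47.4 and 49.4 FPKM in L2 (log2 fold change -5.21 ± 0.20, adjusted p = 2.14e-05, limma).

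The 2 mineral transporters that rose as DEGs carry nitrogen. High affinity nitrate transporter 2.5 (TRINITY_DN16657_c0_g1), known in Arabidopsis from nitrogen-starved plants, had 45.7, 56.6 and 33 FPKM in M7 and 3.96, 3.39 and 4.43 FPKM in L2 (log2 fold change 3.20 ± 0.26, adjusted p = 0.000104, limma). Ammonium transporter 2-like (TRINITY_DN18682_c0_g1) had 268, 217 and 196 FPKM in M7 and 21.2, 22.4 and 22.7 FPKM in L2 (log2 fold change 3.29 ± 0.18, adjusted p = 3.07e-05, limma). Serine acetyltransferase (TRINITY_DN13938_c0_g1), which makes the precursor of cysteine, was at 46.7, 58.1 and 55.7 FPKM in M7 and 2.94, 2.19 and 3.39 FPKM in L2 (log2 fold change 3.83 ± 0.21, adjusted p = 3.17e-05, limma). With the sulfotransferase and the rhodanese it made up the 3 DEGs that rose among 42 sulfur and nitrogen assimilation unigenes, of which 0 fell as DEGs. Amino acid and peptide transporters held 4 DEGs that rose and 8 that fell among 92, against 1.28% and 4.41% of all kept unigenes. Their summed level overlapped between the stages as deposited. Lysine histidine transporter 1-like (TRINITY_DN1622_c1_g1), an amino acid carrier, had 166, 393 and 265 FPKM in M7 and 47.9, 46.2 and 47.1 FPKM in L2 (log2 fold change 2.43 ± 0.32, adjusted p = 0.000898, limma). NRT1/PTR FAMILY 4.5-like (TRINITY_DN1821_c0_g2) was listed at 0 in M7 and had 57.3, 55.9 and 57.3 FPKM in L2 (adjusted p = 1.67e-05, limma). Among 16 aquaporins 0 rose and 1 fell as DEGs. PIP1-3-like (TRINITY_DN2924_c0_g2), a water channel of the plasma membrane, had 709, 724 and 845 FPKM in M7 and 546, 538 and 608 FPKM in L2, and its log2 fold change was 0.43 as deposited and -0.37 after quantile normalization. Its adjusted p of 0.0207 (limma) became 0.0625 without L2 replicate 1 and 0.0645 without L2 replicate 2.

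**Figure D4:**
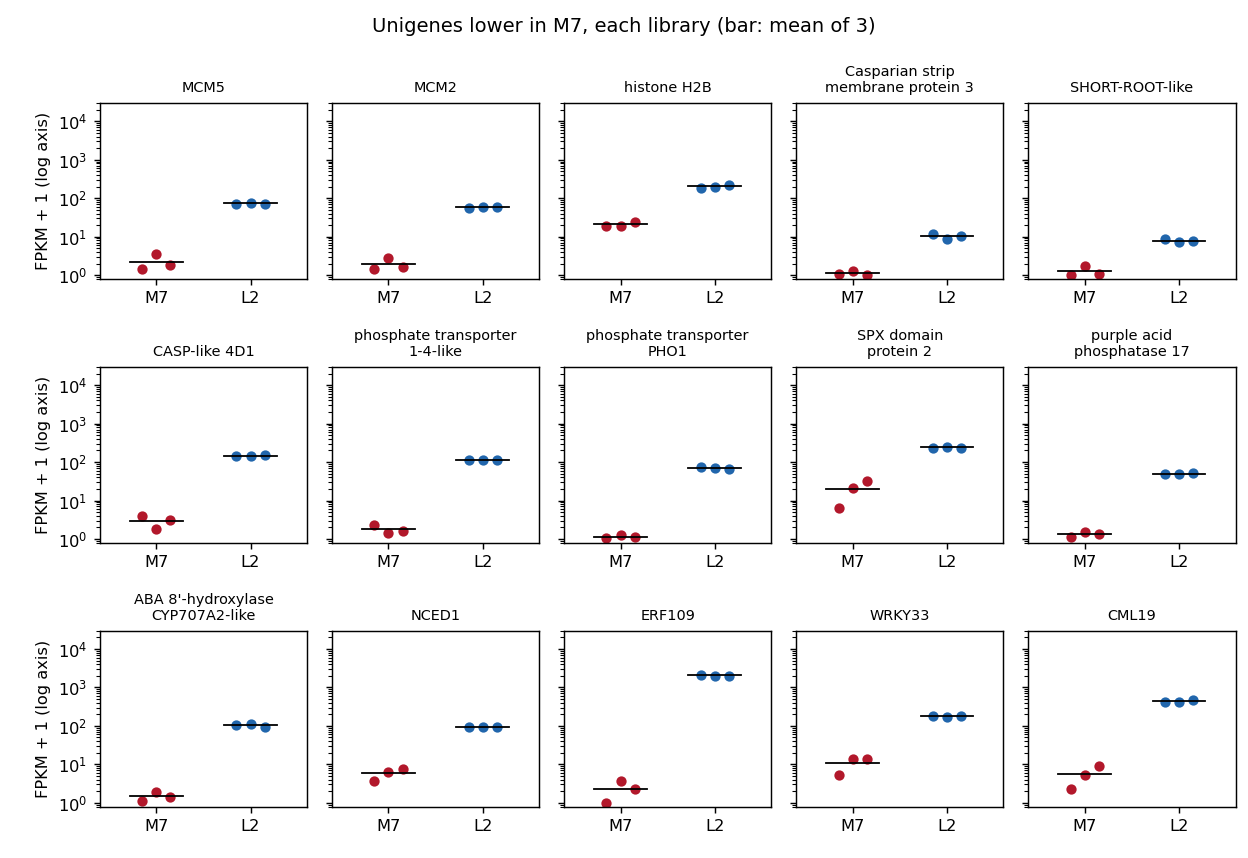
Points are single libraries of 15 unigenes lower in M7 as deposited, M7 in red at the left and L2 in blue at the right of each panel, on a log axis of FPKM + 1, with a line at the mean of 3. No M7 point reaches an L2 point in any panel. Replicate 1 of M7, the left red point, is among the lowest in most panels.

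Photosynthesis genes stood apart in the other direction. Of 33 kept unigenes with such names, 7 rose as DEGs and 0 fell, and 10 were large rises (30.3%, against 2.66% of all kept unigenes). Their sum was 3736, 1807 and 3090.00 FPKM in M7 and 206, 209 and 211 FPKM in L2, higher in M7 under all 3 scalings, and the median of the list lay 2.11 above that of all unigenes. Most of it was a chlorophyll A-B binding protein (TRINITY_DN22710_c0_g1), which binds chlorophyll in the light-harvesting antenna, with 2913, 1196 and 2148 FPKM in M7 and 17.5, 21.1 and 17.6 FPKM in L2 (log2 fold change 6.64 ± 0.34, adjusted p = 2.81e-05, limma). Another chlorophyll a/b binding protein (TRINITY_DN3204_c0_g1) had 212, 76.5 and 43.6 FPKM in M7 and 4.04, 3.93 and 1.97 FPKM in L2 (log2 fold change 4.43 ± 0.61, adjusted p = 0.00101, limma). Photosystem II 22 kDa protein (TRINITY_DN10890_c0_g2), which helps dissipate excess light, had 21.6, 15.2 and 157 FPKM in M7, with replicate 3 far above the others, and 0, 0 and 0.07 FPKM in L2 (log2 fold change 5.24 ± 0.86, adjusted p = 0.00227, limma). Photosystem II 5 kDa protein (TRINITY_DN19324_c0_g1) had 85.1, 94.5 and 149 FPKM in M7 and 4.62, 5.28 and 3.57 FPKM in L2 (log2 fold change 4.30 ± 0.28, adjusted p = 4.98e-05, limma).

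Not all parts of the photosynthetic apparatus followed. Rubisco fixes carbon dioxide and is the main protein of green leaves. Its small chain 1B (TRINITY_DN3660_c0_g1) had only 6.66, 3.86 and 6.45 FPKM in M7 and 2.28, 3.39 and 2.7 FPKM in L2 (log2 fold change 0.79, adjusted p = 0.0347, limma), and its adjusted p was 0.0575 to 0.114 without replicate 1 or 3 of M7 or any library of L2. The large chain (TRINITY_DN16855_c1_g1), which the chloroplast genome encodes, had 0.06, 0.12 and 0.19 FPKM in M7 and 1.43, 1.94 and 1.59 FPKM in L2, with a direction that turned after quantile normalization (log2 fold change -1.24 as deposited, 0.53 then). Both were chosen after their values were seen. The named antenna and photosystem unigenes were thus high in M7, while both Rubisco unigenes had low values in both stages. The study purified mRNA with oligo(dT) beads, and how well these recover transcripts of the chloroplast genome was not tested. The part that green tissue in the M7 samples could have in the rises was not tested.

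Geranylgeranyl diphosphate reductase (TRINITY_DN13283_c0_g1), which makes the phytol tail of chlorophyll and tocopherol, had 358, 208 and 336 FPKM in M7 and 19.5, 17.8 and 17.9 FPKM in L2 (log2 fold change 3.92 ± 0.25, adjusted p = 4.52e-05, limma). HY5 (TRINITY_DN11764_c0_g2), the factor that turns on light-response genes, had 10.4, 105 and 138 FPKM in M7, with replicate 1 the lowest, and 0.35, 0 and 0.57 FPKM in L2 (log2 fold change 5.43 ± 0.97, adjusted p = 0.00327, limma). Of 24 light perception and clock unigenes, 1 rose as a DEG and 5 fell, against 1.28% and 4.41% of all kept unigenes. Their summed level was lower in every M7 library as deposited and higher in every M7 library under both other scalings. The one that rose, CONSTANS-LIKE 13 (TRINITY_DN19782_c0_g1), had 108, 121 and 142 FPKM in M7 and 12.3, 13 and 11.3 FPKM in L2 (log2 fold change 3.23 ± 0.18, adjusted p = 3.31e-05, limma). Its relative CONSTANS-LIKE 10-like (TRINITY_DN3817_c0_g1) fell to 2.73, 3.22 and 4.97 FPKM in M7, against 110.02, 109 and 118 FPKM in L2 (log2 fold change -4.64 ± 0.23, adjusted p = 2.78e-05, limma). B-box zinc finger protein 19 (TRINITY_DN267_c0_g1), of the same class of regulators, had 0.10, 0.92 and 1.31 FPKM in M7 and 64, 60.9 and 62 FPKM in L2 (log2 fold change -5.22 ± 0.31, adjusted p = 3.82e-05, limma). Members of this family thus changed in opposite directions.

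A pyruvate decarboxylase and an alcohol dehydrogenase were abundant unigenes that rose. Pyruvate decarboxylase and alcohol dehydrogenase turn pyruvate into ethanol and regenerate the NAD that glycolysis needs when oxygen is short. Pyruvate decarboxylase 1 (TRINITY_DN11543_c0_g1) had 2265, 3159 and 2622 FPKM in M7 and 126, 125 and 124 FPKM in L2 (log2 fold change 4.40 ± 0.15, adjusted p = 1.88e-05, limma), a ratio of the stage means of 21.4. Alcohol dehydrogenase 2-like (TRINITY_DN14161_c0_g1), chosen after its values were seen, had 1670.1, 4339 and 4431 FPKM in M7 and 124, 124 and 126 FPKM in L2 (log2 fold change 4.66 ± 0.39, adjusted p = 0.00013, limma), a ratio of 28. In both, every M7 library lay more than 10-fold above every L2 library.

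Glycolysis and citrate cycle unigenes, pyruvate decarboxylase included, summed to 6680.00, 7403 and 6649 FPKM in M7 and 3536, 3484 and 3651 FPKM in L2, higher in M7 under all 3 scalings, with 3 DEGs that rose and 4 that fell among 59. Without pyruvate decarboxylase 1 the sums were 4415, 4244 and 4027 FPKM in M7 and 3409, 3359 and 3527 FPKM in L2, and they were lower in M7 after quantile normalization. The median log2 fold change of the list was that of all kept unigenes (difference 0.0), so no rise of the whole list is read from the sum. Cytosolic phosphoglycerate kinase-like (TRINITY_DN12261_c0_g2), a payoff step of glycolysis, had 1130.00, 1099 and 860.3 FPKM in M7 and 300.2, 301 and 315 FPKM in L2 (log2 fold change 1.74, under the DEG threshold, adjusted p = 0.000108, limma). Succinate dehydrogenase subunit 6 (TRINITY_DN16458_c0_g1), of the citrate cycle, rose, with 385, 231 and 189.5 FPKM in M7 and 48.2, 49.1 and 56.3 FPKM in L2 (log2 fold change 2.30 ± 0.29, adjusted p = 0.00069, limma). A pyruvate kinase unigene (TRINITY_DN10865_c0_g1), of the last step of glycolysis, fell to 1.18, 7.22 and 2.77 FPKM in M7, against 70.7, 69.8 and 64.2 FPKM in L2 (log2 fold change -4.09 ± 0.49, adjusted p = 0.000568, limma). Plant cysteine oxidase 2-like (TRINITY_DN1028_c0_g3), an oxygen sensor that marks group VII ERF factors for degradation in Arabidopsis and was chosen after its values were seen, had 51.6, 118 and 94.5 FPKM in M7 and 33.2, 32.9 and 32.8 FPKM in L2 (log2 fold change 1.31, adjusted p = 0.0126, limma). RAP2-12-like (TRINITY_DN1239_c1_g1), a factor of that group, had 538, 620.3 and 651 FPKM in M7 and 227, 209 and 228 FPKM in L2 (log2 fold change 1.44, adjusted p = 0.000163, limma). Both passed the adjusted p threshold and stayed under the fold threshold, and the oxidase had an adjusted p of 0.0505 without L2 replicate 2 and 0.0507 without L2 replicate 3 (limma).

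**Figure D5:**
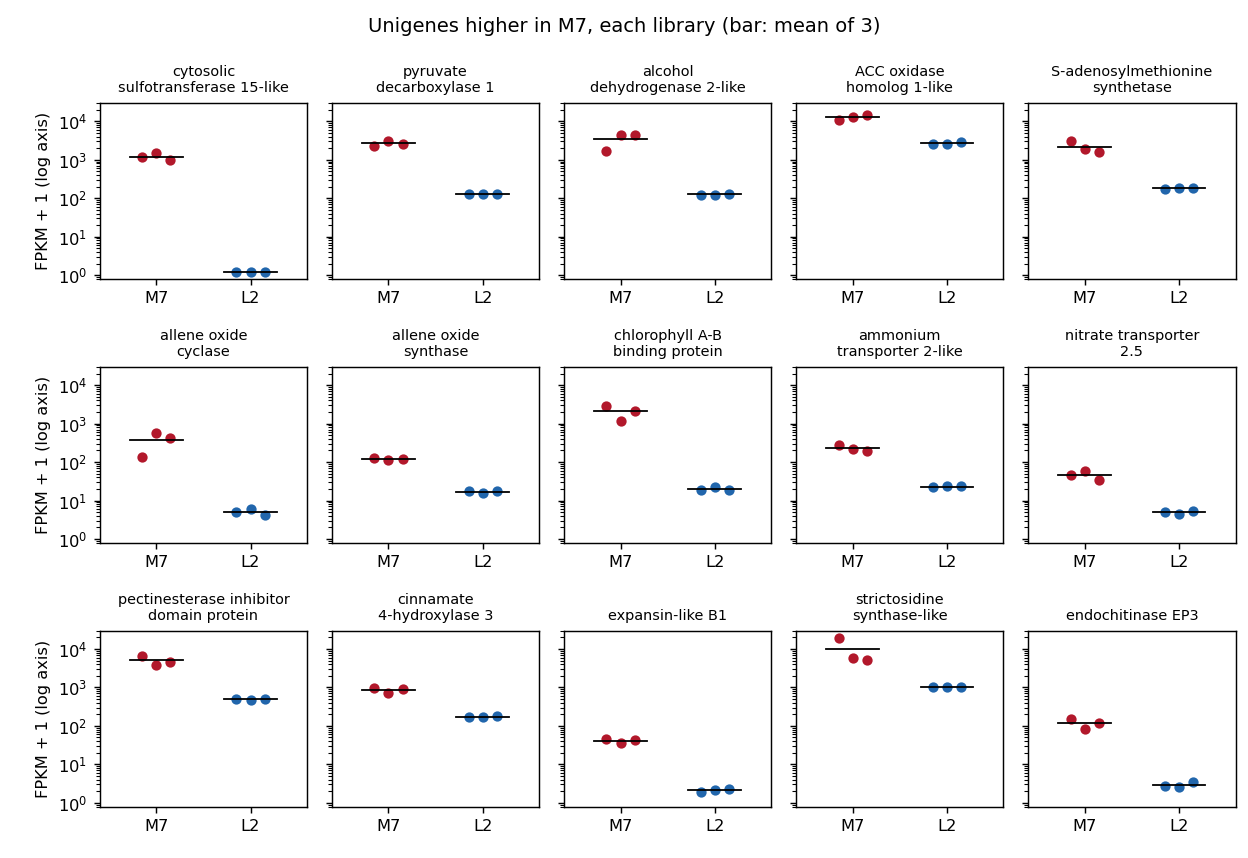
Points are single libraries of 15 unigenes that rose in M7, M7 in red at the left and L2 in blue at the right of each panel, on a log axis of FPKM + 1, with a line at the mean of 3. Every M7 point lies above every L2 point in its panel. In the strictosidine synthase-like panel, replicate 1 of M7 lies above the other M7 libraries.

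Ethylene names held some of the most abundant unigenes of the older root. Ethylene is made from S-adenosylmethionine through ACC, which ACC oxidase converts. Of 27 such unigenes, 4 rose as DEGs and 0 fell, and the sum was 12098, 15177 and 16693 FPKM in M7 and 3294, 3236 and 3600.00 FPKM in L2, higher in M7 under all 3 scalings. ACC oxidase homolog 1-like (TRINITY_DN3840_c2_g1) carried most of this, with 10806, 13052 and 14963 FPKM in M7 and 2563, 2522 and 2869.7 FPKM in L2 (log2 fold change 2.28 ± 0.13, adjusted p = 3.51e-05, limma). Proteins called homologs of ACC oxidase belong to the same oxygenase family, and whether they make ethylene does not follow from the name. Another homolog (TRINITY_DN2386_c0_g1) had 499.97, 993 and 774 FPKM in M7 and 81.6, 80.1 and 83.5 FPKM in L2 (log2 fold change 3.14 ± 0.26, adjusted p = 0.000128, limma). EBF2-like (TRINITY_DN1694_c0_g1), an F-box protein that removes the ethylene factor EIN3, had 195, 156 and 84.8 FPKM in M7 and 19.9, 20.1 and 17.9 FPKM in L2 (log2 fold change 2.77 ± 0.33, adjusted p = 0.000569, limma).

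The 3 abundant S-adenosylmethionine synthases shown here, chosen after their values were seen, rose together; their product also donates methyl groups to lignin and many other compounds. TRINITY_DN2416_c0_g1 had 13161, 5615 and 5139 FPKM in M7, with replicate 1 the highest, and 1251, 1236 and 1293 FPKM in L2 (log2 fold change 2.52 ± 0.36, adjusted p = 0.00127, limma). TRINITY_DN2361_c0_g1 had 5813, 3148 and 3667 FPKM in M7 and 863, 842 and 889 FPKM in L2 (log2 fold change 2.23 ± 0.23, adjusted p = 0.000304, limma). TRINITY_DN2416_c0_g3 had 3114, 1849 and 1574 FPKM in M7 and 174, 180.2 and 184 FPKM in L2 (log2 fold change 3.53 ± 0.26, adjusted p = 7.78e-05, limma). Reads could be shared between TRINITY_DN2416_c0_g1 and TRINITY_DN2416_c0_g3, which come from a single assembly component.

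The named enzymes of jasmonate synthesis that act after lipoxygenase rose, and the 2 TIFY unigenes picked by the naming rule fell. The hormone is made from linolenic acid by lipoxygenase, allene oxide synthase, allene oxide cyclase and OPR3. Of 25 jasmonate unigenes, 5 rose and 2 fell as DEGs, against 1.28% and 4.41% of all kept unigenes. Their summed level was higher in every M7 library as deposited and after median ratio rescaling, and overlapped between the stages after quantile normalization. Linoleate 13S-lipoxygenase 2-1 (TRINITY_DN132_c0_g1), the entry enzyme, had 153, 65.6 and 229 FPKM in M7 and 122, 124 and 118 FPKM in L2 and did not pass the test (log2 fold change 0.12, adjusted p = 0.822, limma), with a log2 fold change of 0.62 (adjusted p = 0.0488) without replicate 2 of M7 and -0.27 (0.56) without replicate 3. That unigene was chosen after its values were seen. Allene oxide synthase (TRINITY_DN25212_c0_g1) had 128, 110.2 and 118 FPKM in M7 and 16.2, 15 and 17.1 FPKM in L2 (log2 fold change 2.81 ± 0.16, adjusted p = 3.54e-05, limma). Allene oxide cyclase (TRINITY_DN10456_c0_g1) had 137, 563 and 429 FPKM in M7 and 4.05, 5.05 and 3.17 FPKM in L2 (log2 fold change 6 ± 0.55, adjusted p = 0.000183, limma). A further cyclase (TRINITY_DN35460_c0_g1) had 285, 356 and 134 FPKM in M7 and 22.3, 24.2 and 22.9 FPKM in L2, and OPR3 (TRINITY_DN3604_c0_g1), which reduces the cyclized product and was chosen after its values were seen, had 274, 139 and 101 FPKM in M7 and 29.9, 30.8 and 25.4 FPKM in L2. Consecutive enzymes of the route were thus higher in every M7 library than in any L2 library. TIFY 5A-like (TRINITY_DN31583_c0_g1), of the family of JAZ repressors, had 4.99, 43 and 64 FPKM in M7, with replicate 1 the lowest, and 652, 611 and 675 FPKM in L2 (log2 fold change -4.65 ± 0.89, adjusted p = 0.00435, limma). TIFY 10B (TRINITY_DN3331_c0_g1), of the same family, had 12.2, 50.6 and 65.2 FPKM in M7 and 209, 200.1 and 204 FPKM in L2 (log2 fold change -2.53 ± 0.61, adjusted p = 0.0114, limma), with an adjusted p of 0.0502 (limma) without replicate 3 of L2. Another TIFY 5A-like unigene (TRINITY_DN27771_c0_g1), chosen after its values were seen, rose, with 13.5, 102 and 37.9 FPKM in M7 and 7.75, 7.25 and 7.94 FPKM in L2 (log2 fold change 2.17 ± 0.69, adjusted p = 0.0325, limma). That call was lost without replicate 3 of M7 (adjusted p = 0.074) or without any single L2 library (0.0985 to 0.104).

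For abscisic acid, the hormone of drought and dormancy, the named enzymes of synthesis and breakdown fell and a pair of receptors rose. Among 29 unigenes, 2 rose and 6 fell as DEGs, against 1.28% and 4.41% of all kept unigenes. Their summed level was lower in every M7 library as deposited and higher after median ratio rescaling. After quantile normalization it overlapped between the stages, so no direction of the list is read from it. NCED1 (TRINITY_DN25604_c0_g1), of the committed step of synthesis, had 2.7, 5.23 and 6.44 FPKM in M7 and 91.3, 91.7 and 90.1 FPKM in L2 (log2 fold change -4.05 ± 0.30, adjusted p = 7.43e-05, limma). CYP707A2-like (TRINITY_DN335_c0_g1), an 8'-hydroxylase that inactivates the hormone, had 0.11, 0.92 and 0.43 FPKM in M7 and 102, 108 and 94.8 FPKM in L2 (log2 fold change -6.14 ± 0.25, adjusted p = 2.46e-05, limma). Another 8'-hydroxylase (TRINITY_DN3866_c0_g1) had 0, 0.07 and 0 FPKM in M7 and 41.2, 38 and 37.4 FPKM in L2 (adjusted p = 1.87e-05, limma). The receptor PYL4-like (TRINITY_DN1905_c1_g1) had 26.7, 122 and 60.1 FPKM in M7 and 4.49, 4.69 and 4.49 FPKM in L2 (log2 fold change 3.42 ± 0.54, adjusted p = 0.00189, limma). PYL9-like (TRINITY_DN17836_c0_g1), also a receptor, had 28.4, 29.98 and 67.7 FPKM in M7 and 3.34, 4.29 and 3.55 FPKM in L2 (log2 fold change 3.08 ± 0.37, adjusted p = 0.000606, limma). These 2 receptors were the DEGs that rose.

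Strigolactones are root signals to arbuscular fungi that plants make most when phosphate is scarce. Unigenes with strigolactone or symbiosis words had 0 DEGs that rose and 3 that fell among 24, and 12 were large falls (50%, against 24.8% of all kept unigenes), while 8 of the 24 lay under 0.1 FPKM in all M7 libraries. Carotenoid cleavage dioxygenase 8 (TRINITY_DN25596_c0_g1), of strigolactone synthesis, had 0.13, 0.07 and 0 FPKM in M7 and 174, 168 and 172 FPKM in L2 (adjusted p = 1.5e-05, limma). D14-like (TRINITY_DN17808_c0_g1), of the receptor family, had 0, 0 and 0.06 FPKM in M7 and 142, 139.7 and 141 FPKM in L2 (adjusted p = 1.5e-05, limma). Nodulation receptor kinase (TRINITY_DN202_c0_g1), a name from the symbiosis of legumes, had 0.15, 1.72 and 0.75 FPKM in M7 and 39.6, 41.1 and 36.7 FPKM in L2 (log2 fold change -4.51 ± 0.34, adjusted p = 8.38e-05, limma). The summed level of the list overlapped between the stages after median ratio rescaling. Without its most abundant unigene, the sum was lower in every M7 library under all 3 scalings.

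Genes of calcium signalling were low in M7. Calcium signalling unigenes numbered 125, with 1 DEG that rose and 23 that fell, and 52 were large falls (41.6%, against 24.8% of all kept unigenes, and 4.41% of all fell as DEGs). Their sum was 1101, 2650.00 and 2360.00 FPKM in M7 and 5781, 5826 and 6009 FPKM in L2, lower in M7 under all 3 scalings. CML19 (TRINITY_DN114295_c0_g1), a calmodulin-like sensor, had 1.3, 4.14 and 7.89 FPKM in M7 and 424, 429.6 and 466 FPKM in L2 (log2 fold change -6.55 ± 0.49, adjusted p = 8.19e-05, limma). Ole e 8 (TRINITY_DN36784_c0_g1), a calcium-binding allergen first known from olive pollen, had 38.3, 219 and 162 FPKM in M7, with replicate 1 the lowest, and 821, 811 and 908 FPKM in L2 (log2 fold change -2.92 ± 0.64, adjusted p = 0.00788, limma). The DEG that rose, PBP1-like (TRINITY_DN15102_c0_g2), a calcium-binding partner of a polarity kinase in Arabidopsis, had 157, 48.9 and 56.6 FPKM in M7 and 9.25, 15.6 and 13.2 FPKM in L2 (log2 fold change 2.52 ± 0.49, adjusted p = 0.00463, limma).

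Leucine-rich repeat receptor kinases, which sense peptides and microbial molecules, held 1 DEG that rose and 11 that fell among 116. A kinase of this class (TRINITY_DN31538_c0_g1) had 0.07, 0.15 and 0.09 FPKM in M7 and 85, 85.3 and 77.4 FPKM in L2 (log2 fold change -6.24 ± 0.17, adjusted p = 1.6e-05, limma), while FLS2 (TRINITY_DN29984_c0_g1), the flagellin receptor by name, had 43.1, 96.6 and 33.4 FPKM in M7 and 8.65, 8.12 and 7.85 FPKM in L2 (log2 fold change 2.52 ± 0.41, adjusted p = 0.00213, limma). WRKY factors, regulators of defence, had 0 DEGs that rose and 5 that fell among 31. WRKY33 (TRINITY_DN2030_c0_g1) had 4.21, 12.5 and 13.2 FPKM in M7 and 179, 173 and 177 FPKM in L2 (log2 fold change -4.15 ± 0.42, adjusted p = 0.000268, limma). MYB and RADIALIS-like factors had 0 DEGs that rose and 5 that fell among 62. MYB108-like (TRINITY_DN3027_c0_g1), a stress-related R2R3 factor, had 0.53, 1.47 and 1 FPKM in M7 and 55.5, 58.9 and 56 FPKM in L2 (log2 fold change -4.88 ± 0.23, adjusted p = 2.68e-05, limma). RADIALIS-like 3 (TRINITY_DN24929_c1_g1), a small MYB-related protein, had 0, 5.1 and 3.08 FPKM in M7 and 66.2, 75.3 and 83.3 FPKM in L2 (log2 fold change -4.69 ± 0.68, adjusted p = 0.00129, limma). The sums of the kinases, the WRKY and the MYB lists were lower in every M7 library under all 3 scalings.

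AP2/ERF and DREB factors, ERF109 among them, included 3 DEGs that rose and 9 that fell among 71, against 1.28% and 4.41% of all kept unigenes. Their summed level was lower in every M7 library as deposited and overlapped between the stages after median ratio rescaling. Without ERF109 it overlapped as deposited too. The largest rise was an AP2/ERF-domain protein (TRINITY_DN1638_c0_g1), at 114, 65.7 and 106 FPKM in M7 and 5.95, 3.99 and 6.44 FPKM in L2 (log2 fold change 3.88 ± 0.30, adjusted p = 8.84e-05, limma). Heat shock proteins and chaperones had 1 DEG that rose and 13 that fell among 151, against 1.28% and 4.41% of all kept unigenes. Their summed level overlapped between the stages as deposited. It was higher in every M7 library after median ratio rescaling and lower in every M7 library after quantile normalization. HSP90 (TRINITY_DN34589_c0_g1), a chaperone of kinases and receptors, had 37.3, 179 and 159.6 FPKM in M7 and 735, 718 and 721 FPKM in L2 (log2 fold change -2.81 ± 0.60, adjusted p = 0.00703, limma). BAG5 (TRINITY_DN17055_c0_g1), a co-chaperone, had 116, 63.6 and 62.5 FPKM in M7 and 12, 15.4 and 14.2 FPKM in L2 (log2 fold change 2.40 ± 0.30, adjusted p = 0.000658, limma). Nudix hydrolase 18 (TRINITY_DN3520_c0_g1), of a family that cleaves nucleoside diphosphates and chosen after its values were seen, had 12.5, 160.3 and 114 FPKM in M7 and 1790.2, 1768 and 1955 FPKM in L2 (log2 fold change -4.86 ± 0.93, adjusted p = 0.00438, limma). Replicate 1 of M7 was the lowest library for HSP90 and for the hydrolase.

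Defence proteins were mixed in direction and high in sum. Among 95 pathogenesis-related and defence unigenes, 7 rose and 10 fell as DEGs, and their sum was 5161, 11724 and 6359 FPKM in M7 and 2812, 2777 and 2881 FPKM in L2, higher in M7 under all 3 scalings. The median of the list lay only 0.19 above that of all kept unigenes. Major allergen Pru ar 1-like (TRINITY_DN3840_c0_g2), of the PR-10 family, had 1748, 4103 and 2102 FPKM in M7 and 169, 159 and 186 FPKM in L2 (log2 fold change 3.85 ± 0.33, adjusted p = 0.000132, limma). Endochitinase EP3 (TRINITY_DN11328_c0_g1), which cleaves chitin, had 151, 82.5 and 117 FPKM in M7 and 1.66, 1.56 and 2.41 FPKM in L2 (log2 fold change 5.33 ± 0.28, adjusted p = 2.96e-05, limma). A germin-like protein (TRINITY_DN2328_c0_g1), secreted into the wall, had 0.09, 0 and 0 FPKM in M7 and 80.2, 76.9 and 76.9 FPKM in L2 (adjusted p = 1.6e-05, limma).

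Triterpenoid saponins come from mevalonate through squalene, which squalene epoxidase and beta-amyrin synthase turn into the oleanane skeleton and P450 enzymes oxidize. Of 53 mevalonate and triterpene unigenes, 2 rose and 4 fell as DEGs, against 1.28% and 4.41% of all kept unigenes. Their sums were 2481, 3511 and 2938 FPKM in M7 and 2283, 2259 and 2214 FPKM in L2. These sums overlapped after quantile normalization and, without an abundant acetoacetyl-coenzyme A thiolase, also as deposited. HMG-CoA reductase (TRINITY_DN23299_c0_g1), which makes mevalonate, had 6.16, 10.2 and 5.07 FPKM in M7 and 43.7, 43.9 and 43.2 FPKM in L2 (log2 fold change -2.50 ± 0.27, adjusted p = 0.000372, limma). Squalene epoxidase 1 (TRINITY_DN26458_c0_g2) had 48.6, 61.4 and 70.02 FPKM in M7 and 12.5, 12.2 and 13.3 FPKM in L2 (log2 fold change 2.14 ± 0.20, adjusted p = 0.000209, limma). Beta-amyrin synthase (TRINITY_DN2802_c1_g1) had 83.4, 39.7 and 36.7 FPKM in M7 and 242, 239 and 205 FPKM in L2 (log2 fold change -2.18 ± 0.34, adjusted p = 0.0018, limma), a call lost after median ratio rescaling (adjusted p = 0.103). Beta-amyrin 28-oxidase (TRINITY_DN10108_c0_g1), a P450 of oleanolic acid synthesis, had 6.77, 59.2 and 40.7 FPKM in M7, with replicate 1 far below the others, and 3.53, 3.36 and 3.4 FPKM in L2 (log2 fold change 2.60 ± 0.77, adjusted p = 0.0243, limma), and its adjusted p was 0.0535 to 0.0842 without replicate 2 or 3 of M7 or any library of L2. The unigenes named here thus did not change in a single direction. The rule for naming takes both rises and falls, so this mix is no result for the route.

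Mono- and sesquiterpene synthases were low in M7. These enzymes, which make volatile terpenes, had 0 DEGs that rose and 4 that fell among 12, and their sum was 25.3, 83.4 and 54 FPKM in M7 and 475, 477 and 489 FPKM in L2, lower in M7 under all 3 scalings. Vetispiradiene synthase 2-like (TRINITY_DN33742_c1_g2) had 2.08, 1.13 and 0.75 FPKM in M7 and 225, 237 and 252 FPKM in L2 (log2 fold change -6.73 ± 0.26, adjusted p = 2.24e-05, limma). Alpha-farnesene synthase (TRINITY_DN3186_c0_g1) had 14.5, 27.6 and 15.1 FPKM in M7 and 103, 93.7 and 94.9 FPKM in L2 (log2 fold change -2.35 ± 0.28, adjusted p = 0.000584, limma). Iridoid route and strictosidine synthase-like unigenes went the other way in sum, with 25544, 12146 and 6726 FPKM in M7 and 2702, 2700.00 and 2720.00 FPKM in L2, and with 3 DEGs that rose and 2 that fell among 39. Without its most abundant unigene, a strictosidine synthase-like one, the sums were 6394, 6301 and 1582 FPKM in M7 and 1700.00, 1704 and 1696 FPKM in L2, which overlapped. Dipsacus species are known for iridoid glucosides. Strictosidine synthase-like TRINITY_DN3787_c0_g1, of a family that is wider than alkaloid synthesis, had 19150.2, 5845 and 5144 FPKM in M7, with replicate 1 more than 3-fold above the others, and 1002, 996 and 1024 FPKM in L2 (log2 fold change 3.04 ± 0.50, adjusted p = 0.0023, limma). Its relative TRINITY_DN3700_c0_g1 fell to 76.1, 134 and 78.4 FPKM in M7, against 381, 381 and 395 FPKM in L2 (log2 fold change -2.04 ± 0.25, adjusted p = 0.000619, limma). The dehydrogenase of 8-hydroxygeraniol (TRINITY_DN1905_c0_g1), an early step of iridoid synthesis, had 25, 98.9 and 111 FPKM in M7 and 4.76, 5.12 and 5.43 FPKM in L2 (log2 fold change 3.44 ± 0.58, adjusted p = 0.00256, limma).

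Glycoside cleavage and P450 oxidation were the last groups compared. Beta-glucosidases and related enzymes, which split sugars from glycosides, summed to 18811, 13889 and 9074 FPKM in M7 and 4571, 4589 and 4497 FPKM in L2, higher in M7 under all 3 scalings, with 2 DEGs that rose and 2 that fell among 32. A pair of unigenes held most of the sum, and without the first the libraries overlapped after quantile normalization. The median of the list lay only 0.03 above that of all kept unigenes. Beta-glucosidase 24 (TRINITY_DN2169_c0_g2) had 12334, 6367 and 3629.5 FPKM in M7 and 949, 964 and 952 FPKM in L2 (log2 fold change 2.78 ± 0.43, adjusted p = 0.00166, limma). Beta-glucosidase 12-like TRINITY_DN3358_c0_g1 had 5897, 6395 and 4572 FPKM in M7 and 2757, 2759 and 2714 FPKM in L2, under the fold threshold (log2 fold change 1.02, adjusted p = 0.000826, limma) and at -0.01 after quantile normalization. Less abundant unigenes of that name split, since TRINITY_DN2220_c0_g1 had 388, 675 and 311 FPKM in M7 and 68, 65 and 63.9 FPKM in L2 (log2 fold change 2.71 ± 0.30, adjusted p = 0.000415, limma). Its namesake TRINITY_DN18176_c0_g1 had 6.43, 22.9 and 14.8 FPKM in M7 and 268, 275 and 262 FPKM in L2 (log2 fold change -4.25 ± 0.43, adjusted p = 0.000281, limma). Cytochrome P450 unigenes, the oxidases of most plant pathways, had 0 DEGs that rose and 5 that fell among 96, near the shares of all kept unigenes (1.28% and 4.41%). Their summed level overlapped between the stages after median ratio rescaling. CYP749A22-like (TRINITY_DN11213_c0_g1) had 0, 0 and 0.04 FPKM in M7 and 36.6, 35.4 and 36.9 FPKM in L2 (adjusted p = 1.87e-05, limma). P450 714C2-like (TRINITY_DN3241_c0_g1) had 216, 322 and 251 FPKM in M7 and 525, 515 and 519 FPKM in L2 (log2 fold change -1). The adjusted p of that unigene from limma was 0.00276 as deposited and 0.595 after median ratio rescaling.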

How the data were processed

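RNA of roots was sequenced at 3 stages with 3 libraries each, and the M7 and L2 libraries were compared here, while the 3 libraries of the remaining stage entered only the alternative fit of all 9. The FPKM values were made by the authors from reads that passed FastQC and fastx_toolkit trimming, with a Trinity assembly as the reference and RSEM for quantification. The unit TPM also occurs in their methods, and the deposited numbers were not rescaled for the main test. Aligner settings are not given in the sources used here. Columns of stage means equal the means of the libraries and were not used.

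Differences were tested with limma (version 3.58.1, R 4.3.3, moderated variance with a trend) on log2(FPKM + 1), M7 minus L2. Adjusted p values were taken over all 27890 tested unigenes, dropped matches included. The main fit takes a single variance per unigene for both stages, although replicates scattered more in M7 than in L2. The test code was checked beforehand on artificial data with the same spread in both stages, so that check does not cover the unequal spread seen here. The study states an approximate number of clean reads per sample. Low values were not converted to reads here, and so no counting interval is given. Median ratio rescaling and quantile normalization were the other scalings. Further alternatives were another pseudocount, filter, variance model or threshold, the replicate number as a block, and fits that omit a single library.

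Members, gene lists and tests were chosen with earlier results of these data known, and some words that remove wrong members from the lists were added after the descriptions in the files were seen. The rule for named unigenes was the 12 largest rises and falls among DEGs without overlap and, in each of the 34 lists used, the 3 largest rises, the 3 largest falls and the 3 highest means, from which the text names a part. Of the 127 unigenes named, 21 were chosen outside this rule, after their values were seen.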

Additional observations from a re-analysis of the deposited data

How the results depend on the processing

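As deposited, 325 unigenes rose and 1120 fell as DEGs, with 677 large rises and 6314 large falls. A pseudocount of 0.1 gave 1083 large rises and 11680 large falls, and one of 5 gave 296 and 1365. With at least 1 FPKM in all 6 libraries, 637 DEGs fell and large changes were 394 rises and 938 falls. Median ratio rescaling gave 838 DEGs that rose and 548 that fell, 1552 large rises and 3876 large falls, and a share of rises among DEGs of 60.5%. Quantile normalization gave 531 and 696, 2273 and 1695, and 43.3%. With a log2 fold threshold of 1, 806 DEGs rose, large changes were 2075 and 13352, and the share was 34.2%. Asterid matches alone gave 186 and 592, and 293 and 2439. With a library left out, 306 to 371 DEGs rose, 868 to 1285 fell, large rises were 632 to 787, large falls 5420 to 7266 and the share 21.8 to 29.9%. Each of these counts stayed within 1.5 times of the main one under the remaining alternatives.

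With the replicate number as a block, 327 DEGs rose and 1127 fell, with 683 large rises, 6341 large falls and a share of 22.5%. Correlations of the deviations of M7 and L2 libraries of the same number were -0.007, 0.012 and 0.034, so the numbers do not pair the samples. Under the block the Rubisco small chain TRINITY_DN3660_c0_g1 (adjusted p = 0.0946, limma) and histone H3.3 TRINITY_DN11031_c0_g1 (adjusted p = 0.0528, limma) no longer passed the test, and no other named unigene changed its call.

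Relative to the median of all unigenes, 6 lists whose median lay farther from 0 than its SD over the M7 replicates changed sign, namely ribosomal proteins (0.50 with at least 1 FPKM in all 6 libraries and 0.65 for asterid matches), cellulose and xylan synthesis (-0.05 with a pseudocount of 5, -0.21 without a filter and -0.40 with 1 FPKM in all 6), wall loosening (-0.01 with a pseudocount of 5 and -0.14 with 1 FPKM in all 6), wall proteins (0.00 with 1 FPKM in all 6), sulfur and nitrogen assimilation (0.00 with a pseudocount of 5 and -0.33 with 1 FPKM in all 6) and strigolactone words (0.84 with 1 FPKM in all 6). A further 11 lists with medians closer to 0 also changed sign under some alternative, and the value farthest from the main one was -0.35 for translation factors, -0.19 for histones, 0.11 for tubulin and actin, -0.47 for class III peroxidases, -0.13 for mevalonate and triterpene synthesis, -0.09 for the iridoid route, -0.02 for abscisic acid, -0.15 for AP2/ERF factors, -0.19 for defence proteins, -0.87 for beta-glucosidases and 0.36 for amino acid and peptide transporters, so no direction is read from these medians. After quantile normalization, log2 fold changes changed sign for histone H3.3 (-0.51), expansin-A1 (-0.73), PIP1-3 (-0.37), beta-glucosidase 12-like TRINITY_DN3358_c0_g1 (-0.01), Casparian strip membrane protein 3 TRINITY_DN12279_c0_g1 (0.20), SCARECROW (0.72) and the Rubisco large chain (0.53), and for 13S-lipoxygenase the range with a library left out was -0.27 to 0.62. The causes were not tested. Sums without the most abundant unigene of each list, an alternative chosen after the data were seen, are given beside some of the sums they changed. Of the 53 named DEGs that rose, 53 were called after median ratio rescaling and 44 after quantile normalization, against 39 and 48 of the 52 that fell. An asterid match was held by 36 of the 53 that rose and 36 of the 52 that fell. The part that RNA of other plants could have in the L2 values of the rest was not tested. Replicate 1 of M7 had a size factor of 0.455, the lowest. Differences among values near 0 cannot be read without the read counts behind them.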
